A study of Mus musculus with 12 samples.

Results

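DOT1L knockout (KO) and wild-type (WT) macrophages were compared in the untreated state, in 3 KO against 3 WT libraries, which are the 6 libraries without lipopolysaccharide among the 12 of the series. The cells were bone marrow-derived macrophages, grown from mouse marrow for 7 to 8 days in medium that L929 cells had supplied with the growth factor M-CSF. All mice were of the C57BL/6 strain, and KO mice lacked DOT1L in the myeloid lineage, with Lyz2 named in the labels beside the strain. The other 6 libraries, treated with 10 ng/mL of lipopolysaccharide (LPS) for 3 hours, enter only where they are named. The labels call the 3 libraries of a group biological replicates. They give neither the deleted exons nor whether the WT mice carried a Cre allele. The age and number of the mice are likewise not given. A Cre driven from the Lyz2 locus acts in cells that express lysozyme, so deletion can be incomplete in cells that have only recently begun to do so.

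DOT1L is the enzyme that methylates lysine 79 of histone H3 within the body of transcribed genes. It acts in complexes with MLLT3, MLLT10 and related proteins, which also bind the machinery of transcript elongation, and it is best known for keeping HOXA and MEIS1 genes on in leukaemias with KMT2A fusions. Macrophages grown in M-CSF are resting phagocytes. In this state they express lysozyme, complement C1q and scavenger receptors, and hold MHC class II, interferon-induced and inflammatory genes at low levels until a signal arrives.

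Levels are given as counts per 1e6 counts after TMM scaling (CPM), and differences as log2 fold changes of KO over WT with their standard error. Unless another tool is named, adjusted p-values come from edgeR's quasi-likelihood test with Benjamini-Hochberg adjustment over all genes tested, with a threshold of 0.05. A library held 8.99 to 12.9 M counts (M is 1e6), and a floor of 3 counts was worth 0.233 to 0.334 CPM. WT replicate 1, the shallowest library, stood apart: on the first principal component (45.2% of the variance) it lay at 38.2, the other 5 libraries between -14.3 and 1.75. The second component (24.1%) parted the genotypes, with KO libraries at 11.1 to 14.6 and WT libraries at -15.8 to -7.65. Of 7542 genes with a mean log2 CPM of at least 4, WT replicate 1 was over 2-fold away from the mean of its group mates in 154, against 1 to 17 for each of the other libraries. Replicate 2 was male in both genotypes and the others were female, so sex was balanced. All 13 macrophage markers passed the filter on low counts, with a summed level of 12200 to 15070 CPM in WT and 12280 to 13610 CPM in KO. Of 9 neutrophil markers 5 passed it (S100a8, S100a9, Ngp, Ltf and Mpo), with all 9 summing to 16.4 to 34.3 CPM in WT and 21.9 to 32.0 CPM in KO, and Ly6g had 0 reads. Of 5 mast cell and basophil markers Kit alone passed, at 18.2 to 26.9 CPM in WT and 22.1 to 30.2 CPM in KO, while Mcpt8, Fcer1a and Ms4a2 had 0 reads. Of 7 stromal markers Cdh5 alone passed, at 0.587 to 1.07 CPM in WT and 1.13 to 1.46 CPM in KO, and Col3a1 had 0 reads. None of 7 lymphocyte markers passed. The part of these cell types in the differences was not tested.

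**Figure D1:**
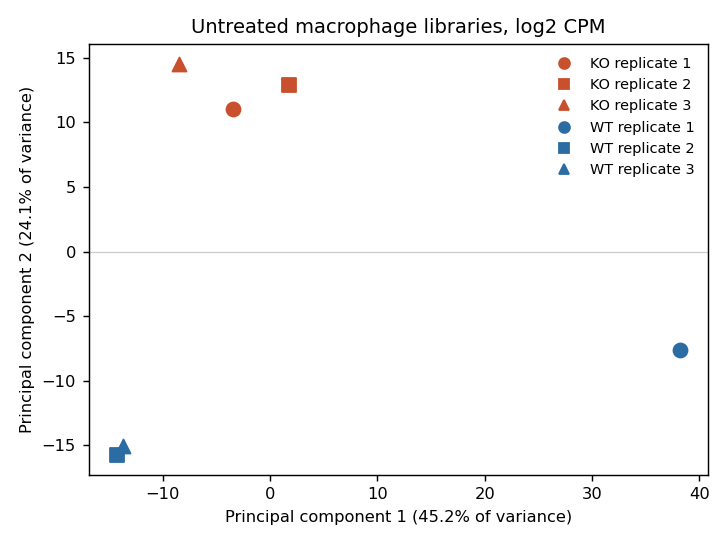
Each point is 1 untreated library, placed by its first (horizontal) and second (vertical) principal component of log2 CPM, with colour for genotype and shape for replicate. WT replicate 1 lies at 38.2 on the first component, and the second component separates KO from WT.

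The first question was how far the transcriptome of resting macrophages differed between KO and WT. KO cells had lower lysozyme 2 and higher MHC class II, interferon-induced GTPase, monocyte and some matrix and protease genes, while general macrophage genes had a median difference of 0.04, or 0.19 without the wild-type library that stood apart. No single gene passed the threshold: 0 of 11622 genes (0% called) had an adjusted p under 0.05, the smallest being 0.0783 for Lyz2. At an unadjusted p under 0.05, 560 genes were higher in KO (4.82% of those tested) and 280 lower (2.41%). All 3 KO libraries lay above all 3 WT libraries for 948 genes (8.16%) and below them for 766 (6.59%). DESeq2 called 41 genes higher (0.353%) and 8 lower (0.0688%), and limma-voom called 0, with 876 genes at an unadjusted p under 0.05. With sample quality weights, which give WT replicate 1 little weight, limma-voom called 406 higher (3.49%) and 172 lower (1.48%). A fit that took its spread from all 12 libraries called 23 higher (0.192% of 11983) and 4 lower (0.0334%). That fit treated the 12 libraries as independent. In genes given below, however, WT replicate 1 differed from its group mates in the same direction untreated and after LPS. Values after LPS are therefore not a separate check. Without WT replicate 1, edgeR called 437 genes higher (3.7% of 11816 tested) and 312 lower (2.64%), and all 49 genes called by DESeq2 were among them. Differences are therefore given with all 6 libraries. The genes described below that passed the threshold only without that library are named as called without it. Fold changes of single genes that moved by over 1.5 times are given. Most list members named below were chosen for a small p in these same libraries. Their lack of overlap, and calls shared between fits, are therefore not separate support. Counts per list are to be read beside the shares over all genes. Of all genes tested, 48.9% were higher with all 6 libraries and 50.5% without WT replicate 1.

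Dot1l (chr10:80755101-80795461, mm10) was read in all 6 libraries. Its level was 121, 105 and 106 CPM in KO replicates 1, 2 and 3 and 100, 134 and 134 CPM in WT replicates 1, 2 and 3. The groups overlapped only through WT replicate 1, and the log2 fold change was -0.15 ± 0.13 (adjusted p = 0.902). Without that library it was -0.28 and passed the threshold (adjusted p = 0.0242, against 0.0242 to 1 over 17 alternatives). Counts run over the whole transcript, so they check neither the deletion nor the labels.

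Lyz2 (chr10:117277541-117282272), which encodes the lysozyme of myeloid cells, had the smallest p of all genes. Its level was 3224, 3700 and 3236 CPM in KO and 8751, 6898 and 7039 CPM in WT, with every KO library below every WT library. The log2 fold change was -1.16 ± 0.11 (adjusted p = 0.0783), and over 17 alternatives it ran from -1.29 to -1.04, with 9.875e-14 to 0.802 as the range of the adjusted p and 5 of them past the threshold. After LPS the same gene differed by -1.17 ± 0.10 (adjusted p = 0.00143). The labels name Lyz2 beside the strain and do not give whether WT mice carried a Cre allele. For Lyz2, an effect of such an allele and an effect of DOT1L loss cannot be told apart here. Lyz1, the neighbour and near copy of Lyz2 and the lysozyme of Paneth cells, differed in the other direction, at 14.2, 18.6 and 10.6 CPM in KO and 6.57, 8.04 and 8.67 CPM in WT. Lyz1 was higher by 0.88 ± 0.22 (adjusted p = 0.353) with no overlap. Of the 50-base windows of the Lyz1 transcript, 16.1% also occur in Lyz2, so a part of the Lyz1 reads is uncertain. Within 2 Mb of Lyz2, 20 other genes were tested, and 2 of them, Lyz1 and the carboxypeptidase gene Cpm, were higher at an unadjusted p under 0.05. Within 2 Mb of Dot1l, 4 of 102 were, namely Arhgap45, Gng7, Matk and Shc2, and 0 were lower. Over all genes tested 4.82% were higher and 2.41% lower at that level, so the count near Dot1l is close to the general share. Arhgap45 was called without WT replicate 1.

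Among the genes with the smallest p that were higher in KO were secreted and surface proteins of several kinds. The leading genes in each direction were chosen by p among genes whose genotypes did not overlap. Neither their lack of overlap nor their calls in other fits to the same libraries are therefore a separate result. Gprc5c, an orphan receptor of the retinoic acid-induced family, stood at 31.9, 39.8 and 33.4 CPM in KO against 13, 14.9 and 16.5 CPM in WT. Mmp13, a collagenase, stood at 129.6, 111 and 129 CPM against 43.1, 61.9 and 55 CPM. The log2 fold changes were 1.24 ± 0.14 and 1.20 ± 0.14, each with an adjusted p of 0.0833, and neither gene overlapped between genotypes. Cd24a, a surface glycoprotein of immature and dendritic cells, was measured at 49.8, 42.1 and 55.4 CPM in KO and 27.1, 19.9 and 18.9 CPM in WT (1.17 ± 0.17). Cyp4f18, which oxidises leukotriene B4, was at 15.7, 19.6 and 19.9 CPM and 9.27, 7.19 and 5.54 CPM (1.34 ± 0.20). Ptgs1, the constitutive cyclooxygenase, was at 22.1, 20.6 and 23.5 CPM and 12.7, 12.8 and 13.4 CPM (0.77 ± 0.11). For these 3 genes the adjusted p was 0.156, and the WT values of Ptgs1 lay within 1 CPM of each other. The same rank of p held Mamdc2 (0.92 ± 0.13), Col18a1, a basement membrane collagen (1.02 ± 0.15), Bhlhb9 (0.90 ± 0.14), Tgfbi, a TGF-beta-induced matrix protein (0.82 ± 0.13), Jup, the junction protein plakoglobin (0.67 ± 0.10), and Pf4, the chemokine CXCL4 (0.59 ± 0.09). All 12 of the leading higher genes, H2-Aa included, were called by DESeq2 and by edgeR without WT replicate 1.

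Genes with the smallest p that were lower in KO differed by less, apart from Lyz2. Ell2, a subunit of the super elongation complex that some DOT1L partners share, was at 150.2, 136 and 143 CPM in KO and 204, 195 and 194 CPM in WT. Its log2 fold change was -0.47 ± 0.08 (adjusted p = 0.192), with no overlap, and DESeq2 called it. Dusp7, a phosphatase of ERK kinases, was at 84, 86.6 and 88.9 CPM and 119.8, 114 and 110.2 CPM (-0.41 ± 0.08). Pde8a, a cyclic AMP phosphodiesterase, was at 48.5, 50.9 and 47.4 CPM and 76.4, 66.4 and 62.1 CPM (-0.48 ± 0.10). Neither gene overlapped between genotypes. Rgl1, an exchange factor for Ral (-0.41 ± 0.08), Utp4, of the small-subunit ribosome assembly machinery (-0.41 ± 0.10), Ptpn12, a tyrosine phosphatase (-0.38 ± 0.08), Atf5, a stress-induced transcription factor (-0.37 ± 0.08), and Nfkbia, the inhibitor of NF-kB (-0.35 ± 0.08), were of the same order. Cdk14 (-0.36 ± 0.08), Gramd1b, a cholesterol transporter of the endoplasmic reticulum (-0.35 ± 0.08), and Rasgef1b (-0.35 ± 0.08) completed the 12, and all of the 12 were called without WT replicate 1. Apart from Lyz2 (0.0783), their adjusted p ran from 0.192 for Ell2 to 0.334 for Nfkbia. Over all genes at an unadjusted p under 0.05, the median size was 0.62 on the log2 scale for the 560 higher genes and 0.31 for the 280 lower genes. The higher genes were also the weaker expressed, with a median log2 CPM of 2.82 against 5.71 for the lower genes and 4.92 for all.

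**Figure D2:**
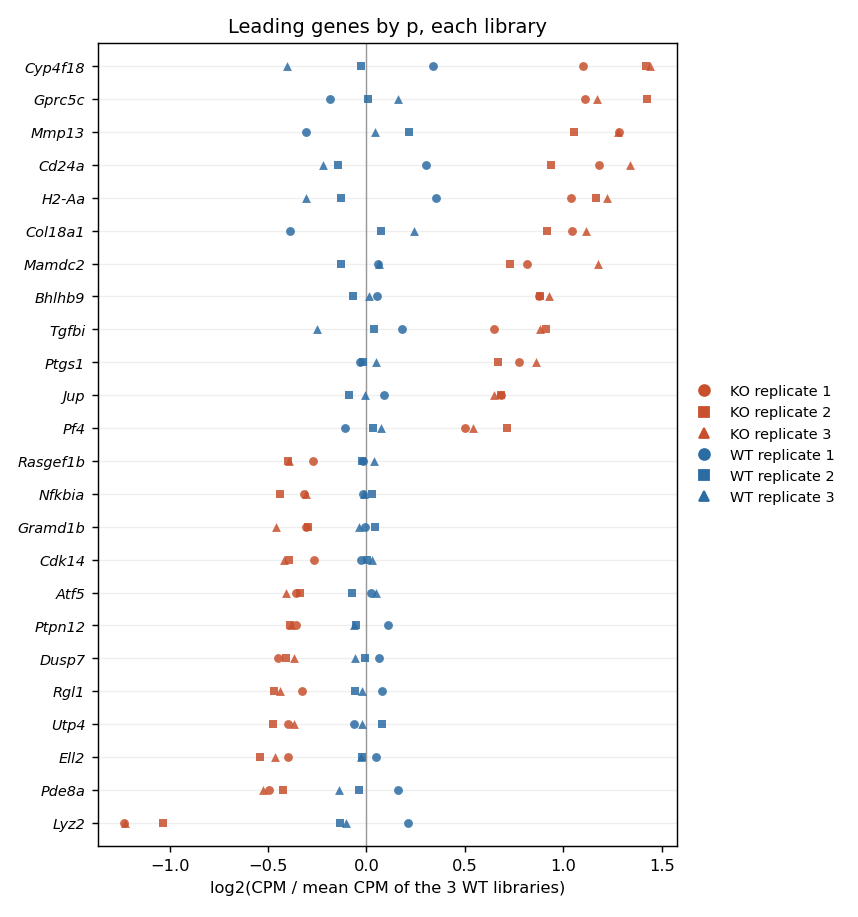
Each row is 1 of the 12 leading genes higher in KO (upper rows) or lower in KO (lower rows), and each point is 1 library, placed by the log2 ratio of its CPM to the mean CPM of the 3 WT libraries. KO (red) and WT (blue) points do not overlap in any row because the rule for choosing these genes required it, and Lyz2 lies farthest to the left.

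MHC class II genes were the gene group with the highest share of members at an unadjusted p under 0.05 among lists of at least 5 tested genes. Class II molecules present peptides to CD4 T cells, CIITA is the coactivator that switches their genes on, and the invariant chain Cd74 and the H2-DM proteins load them. Of 14 listed genes 3 were below the filter (H2-Eb2, H2-DMb2 and H2-Oa), and of the 11 tested 9 were higher in KO and 2 lower, with 8 higher and 0 lower at an unadjusted p under 0.05. Their median log2 fold change was 0.92, against -0.00 over all genes tested, and 1.34 without WT replicate 1.

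The chains themselves came first. H2-Aa, the alpha chain of I-A, was at 85.7, 93.4 and 97.3 CPM in KO and 53.2, 38.2 and 33.7 CPM in WT. H2-Ab1, its beta chain, was at 52.9, 66.1 and 64.6 CPM and 52.8, 25.7 and 19.2 CPM, and H2-Eb1, the beta chain of I-E, at 49.3, 51.4 and 55.1 CPM and 35.1, 23.2 and 17.6 CPM. In all 3 genes WT replicate 1 was the highest WT library, and for H2-Ab1 it was level with the lowest KO library. The log2 fold changes were 1.15 ± 0.16 (adjusted p = 0.156), 0.92 ± 0.32 (adjusted p = 0.555) and 1.05 ± 0.22 (adjusted p = 0.325), and became 1.36, 1.44 and 1.34 without that library, all called. Cd74 was at 324, 351 and 370.2 CPM in KO and 234, 141 and 118 CPM in WT, a difference of 1.09 ± 0.23 (adjusted p = 0.325) and of 1.43 without WT replicate 1 (adjusted p = 1.31e-07, against 1.31e-07 to 1 over 17 alternatives). Ciita was at 11.4, 11.9 and 11 CPM and 7.51, 4.4 and 3.13 CPM (1.22 ± 0.27, and 1.59 without WT replicate 1). Its KO libraries differed by less than 1 CPM, and its WT libraries were all lower but spread by more.

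The loading proteins H2-DMa (0.58 ± 0.20) and H2-DMb1 (0.57 ± 0.10) had smaller fold changes than the chains, and both were called without WT replicate 1, as was Ciita. Of the windows of H2-DMb1 27.2% occur in H2-DMb2 as well. H2-Ob, a chain of the H2-DO modulator, was nominally the most different (1.53 ± 0.57), from a few reads: its level in WT replicate 3, 0.0894 CPM, is under that library's floor of 0.27 CPM. The 3 subunits of the RFX complex, which binds class II promoters together with CIITA, overlapped between genotypes: Rfx5 differed by 0.21 ± 0.14, Rfxap by -0.22 ± 0.14 and Rfxank by -0.11 ± 0.18, or by 0.33, -0.10 and -0.30 without WT replicate 1, with 0 of the 3 called. Of the exons of Rfx5 30.3% and of Rfxank 24.7% lie opposite another gene. DESeq2 called 5 of the 11 genes (H2-Aa, Cd74, H2-Eb1, Ciita and H2-DMb1). After LPS the median over the list was 0.58, with 10 of 11 higher and 3 called by edgeR.

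**Figure D3:**
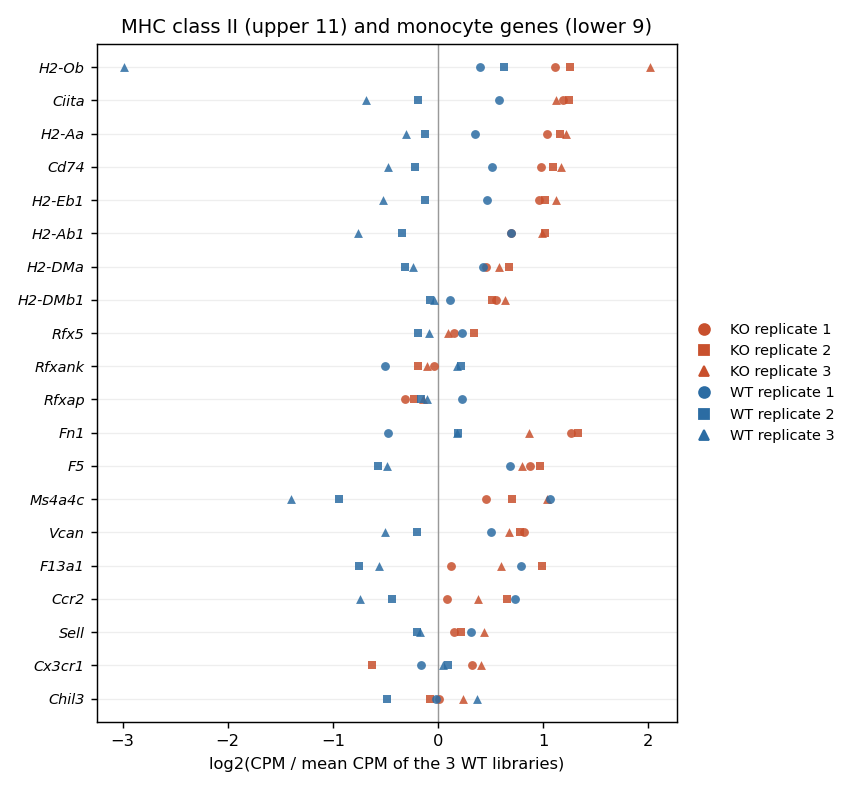
Rows are the 11 tested MHC class II genes (upper) and the 9 tested monocyte genes (lower), and each point is 1 library, placed by the log2 ratio of its CPM to the mean CPM of the 3 WT libraries. WT replicate 1 (blue circle) lies nearer to the KO points than the other WT libraries in most rows, among them Cd74 and H2-Ab1, and the RFX genes scatter around 0.

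Promoters are printed for 3 class II genes that were higher in KO and 1 interferon-induced GTPase, because the motifs in them are those by which these groups are known. Class II promoters hold an X box, bound by the RFX complex, and a Y box with a reversed CCAAT letter run, bound by NF-Y. The stretch of 200 bases before the start site is given on the gene's own strand (RefSeq, GRCm38.p6), with GATTGG or its reverse complement in capitals for the class II genes and GAAANNGAAA in capitals for Igtp. H2-Aa lies at chr17:34287824-34288023 on the minus strand, H2-Eb1 at chr17:34305667-34305866 and H2-DMb1 at chr17:34152991-34153190 on the plus strand, and Igtp at chr11:58199356-58199555 on the plus strand.
H2-Aa: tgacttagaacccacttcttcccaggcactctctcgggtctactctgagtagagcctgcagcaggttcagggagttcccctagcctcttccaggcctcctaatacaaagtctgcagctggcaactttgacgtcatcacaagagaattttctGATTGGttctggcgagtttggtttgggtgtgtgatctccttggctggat
H2-Eb1: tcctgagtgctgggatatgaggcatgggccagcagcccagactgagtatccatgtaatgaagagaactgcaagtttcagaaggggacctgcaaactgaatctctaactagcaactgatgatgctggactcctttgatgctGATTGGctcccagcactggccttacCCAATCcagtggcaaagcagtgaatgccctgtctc
H2-DMb1: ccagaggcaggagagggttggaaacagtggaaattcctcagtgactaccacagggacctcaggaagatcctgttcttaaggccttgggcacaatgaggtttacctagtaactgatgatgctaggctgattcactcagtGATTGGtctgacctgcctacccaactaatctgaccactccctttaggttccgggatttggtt
Igtp: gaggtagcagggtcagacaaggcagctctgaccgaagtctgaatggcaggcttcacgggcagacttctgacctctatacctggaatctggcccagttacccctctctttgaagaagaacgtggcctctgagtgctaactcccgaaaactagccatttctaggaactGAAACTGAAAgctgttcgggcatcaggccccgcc
The match to GATTGG begins 49 bases before the start in H2-Aa, 60 before in H2-Eb1 and 62 before in H2-DMb1, and H2-Eb1 holds a match on the other strand 35 bases before the start. Both strands were searched from 250 bases before to 50 after the start. GATTGG was found in all 7 members of the class II list with a RefSeq promoter entry, of which 5 encode class II or loading chains (H2-Aa, H2-Eb1, H2-DMa, H2-DMb1 and H2-Ob) and 2 are the RFX subunits Rfx5 and Rfxank. It was found in 23.8% of the 9356 tested genes with an entry and in 18.2% of all 27025 entries. GAAANNGAAA, the core of the interferon-stimulated response element, was found in 8 of 9 genes of the guanylate-binding and immunity-related GTPases (88.9%), 18 of 33 antiviral genes (54.5%), 0 of those 7 and 3.94% of tested genes. H2-Ab1, Cd74, Ciita and Rfxap have no entry in the table. Neither motif contains the other.

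Interferon-induced genes were higher in KO in most cases, and 0 were called with all 6 libraries. Guanylate-binding proteins (GBP) and immunity-related GTPases (IRG), which attack membranes around intracellular microbes, were higher for 14 of 14 tested genes. Of these 7 had an unadjusted p under 0.05, and the median was 0.48. It was 0.95 without WT replicate 1 and 0.27 without WT replicate 3, with 14 of 14 higher in each case and 6 called in the first. Iigp1 was at 10.8, 4.34 and 6.72 CPM in KO and 4.22, 2.71 and 1.43 CPM in WT (1.44 ± 0.43). Igtp was at 23.7, 19.8 and 22.1 CPM and 16.9, 18.5 and 13.7 CPM (0.42 ± 0.14), and Gbp4 at 7.36, 2.64 and 4 CPM and 2.7, 1.52 and 0.715 CPM (1.57 ± 0.50). Iigp1 and Igtp did not overlap between genotypes, whereas the lowest KO value of Gbp4 lay below the highest WT value. The adjusted p of these 3 ran from 0.431 to 0.549. Tgtp2 (1.11 ± 0.42) shares 90.6% of its windows with other genes, mainly Tgtp1, so its reads cannot be assigned with certainty. It was called without WT replicate 1, and Iigp1, Igtp and Gbp4 were not. Gbp4 and Igtp also share windows with related genes (12.8% and 12.3%).

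Antiviral effectors and interferon signalling genes were higher for 41 of 45 tested, 7 of them at an unadjusted p under 0.05, with a median of 0.35. Oasl1, an inhibitor of Irf7 translation, was at 9.04, 7.46 and 11.8 CPM in KO and 5.28, 6.18 and 3.75 CPM in WT (0.90 ± 0.24, adjusted p = 0.358). Ifi27l2a, a small interferon-induced protein, was at 92.1, 114 and 104 CPM and 43.3, 81.2 and 61.9 CPM (0.73 ± 0.20). Irf7, the transcription factor that amplifies interferon production, was at 46, 32.6 and 56.7 CPM and 31.8, 33.4 and 20.1 CPM (0.67 ± 0.24). Oasl1 and Ifi27l2a did not overlap, and Irf7 did, and of the 3 Oasl1 was called without WT replicate 1. The list's level was lowest in WT replicate 3 (4.71 as mean log2 CPM, where WT replicates 2 and 1 had 5.34 and 5.49) and highest in KO replicate 3 (5.77, where KO replicates 2 and 1 had 5.37 and 5.53). Without WT replicate 3 the median was 0.07, and without KO replicate 3 it was 0.18. After LPS it was 0.05, with 33 of 45 higher.

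MHC class I and its peptide supply differed by little. Of 23 tested genes 18 were higher, 4 of them at an unadjusted p under 0.05, with a median of 0.20. Tapbp, the bridge between class I chains and the peptide pump, was at 374, 351 and 385 CPM in KO and 324, 317 and 301 CPM in WT (0.24 ± 0.08). H2-T23, the non-classical Qa-1 chain, differed by 0.22 ± 0.09 and Tap1, a pump subunit, by 0.29 ± 0.11. Tapbp did not overlap between groups, with an adjusted p of 0.506, but 23.5% of its exons lie opposite an antisense gene, and whether strand was used in counting is not stated. H2-T23 shares 28.8% of its windows with other genes. Tapbp and H2-T23 were called without WT replicate 1.

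Monocytes give rise to macrophages, and all 9 tested genes that mark them were higher in KO. Of these 3 had an unadjusted p under 0.05, and the median of 0.63 was 0.98 without WT replicate 1, with 5 called, and 0.36 to 0.41 without WT replicate 2, WT replicate 3 or KO replicate 2. Fn1, the matrix protein fibronectin, was at 49, 51.4 and 37.1 CPM in KO and 14.7, 23.3 and 23.1 CPM in WT (1.16 ± 0.20, adjusted p = 0.225). Ccr2, the receptor that brings monocytes out of the marrow, was at 42.5, 63.3 and 52 CPM and 66.5, 29.5 and 23.9 CPM (0.41 ± 0.35). F13a1, a transglutaminase, was at 21, 38.1 and 29.1 CPM and 33.2, 11.4 and 13.1 CPM (0.63 ± 0.40). Fn1 separated the genotypes, whereas WT replicate 1 had the highest Ccr2 of all 6 libraries. Without that library Ccr2 differed by 0.97 and was called, and F13a1 by 1.26 and was not. Vcan (0.79 ± 0.28) and F5 (0.93 ± 0.32, and 1.40 without WT replicate 1) were under 5 CPM in every library, and both were called without it, as was Fn1. The defining markers Ly6c2 and Plac8 did not pass the filter. Summed over 7 markers of the cell type, monocyte transcripts stood at 74.5 to 111 CPM in KO and 45.0 to 110 CPM in WT, and their part in the other differences was not tested. In bulk RNA, more cells of a type and more RNA per cell cannot be told apart.

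Of 20 macrophage genes 11 were higher, with 6 higher and 0 lower at an unadjusted p under 0.05, and the median was 0.04. Without WT replicate 1, 14 were higher, the median was 0.19, and 6 were called higher and 0 lower, among them C1qa, Csf1r, Fcgr1 and Itgam. C1qa, a chain of the complement opener C1q, was at 159.8, 177 and 171 CPM in KO and 126, 97.9 and 107 CPM in WT (0.62 ± 0.11, adjusted p = 0.225), with no overlap. The partner chains do not share this size, at 0.10 ± 0.14 for C1qb (0.30 and called without WT replicate 1) and 0.05 ± 0.09 for C1qc (0.11, not called). Csf1r, the M-CSF receptor, was at 1435, 1570 and 1489 CPM and 1353, 1189 and 1177 CPM (0.27 ± 0.09), and 17.9% of its exons lie opposite Hmgxb3. Fcgr1, the high-affinity IgG receptor, was at 155, 157 and 164 CPM and 134, 131 and 107 CPM (0.36 ± 0.10). Neither Csf1r nor Fcgr1 overlapped between genotypes, although both differences were small. Itgam (0.20 ± 0.08) shares 72.4% of its windows with the read-through gene Gm49368. Of the dendritic cell list only 4 of 12 genes passed the filter, Cd24a among them, while Flt3, Zbtb46, Xcr1, Clec9a and Ccr7 were below it.

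Fc and C-type lectin receptors, with which macrophages bind antibody and sugars, split unevenly: 14 of 19 were higher, 7 at an unadjusted p under 0.05, and 2 were lower at that level. Clec10a, the galactose lectin MGL1, was at 18, 22.1 and 20.3 CPM in KO and 14.3, 10.6 and 9.21 CPM in WT (0.83 ± 0.18, adjusted p = 0.325). Its copy Mgl2 was at 5.44, 5.95 and 6 CPM and 3.64, 2.62 and 2.95 CPM (0.93 ± 0.19), and 16.5% of its windows are shared, chiefly with Clec10a. Fcgr4, an activating IgG receptor, was at 97.5, 95.3 and 93.7 CPM and 82.6, 59.4 and 49.3 CPM (0.59 ± 0.17). None of these 3 overlapped between groups. Clec4d (-0.28 ± 0.08) and Clec5a (-0.27 ± 0.12) were the 2 lower genes. The list median was 0.27. With WT replicate 1, 2 or 3 left out it was 0.42, 0.08 or 0.05, and with KO replicate 2 left out 0.15. Clec10a, Mgl2, Fcgr4 and Clec4d were called without WT replicate 1.

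Matrix proteins, by their mean log2 CPM, lay above all WT libraries in all KO libraries, at 7.07 to 7.11 in KO and 6.69 to 6.85 in WT. The summed level of the listed genes did not separate the genotypes, at 13390 to 13520 CPM in KO and 12980 to 15460 CPM in WT. Of 16 tested 9 were higher and the median was 0.29, with 6 higher and 0 lower at an unadjusted p under 0.05. Among the 6 were Fn1, Vcan, Tgfbi and Ecm1, a secreted glycoprotein (0.37 ± 0.13). Without WT replicate 1, 5 genes of the list were called higher and 2 lower. Proteases and inhibitors went both ways, with 11 of 21 higher and a median of 0.02, or 0.09 without WT replicate 1. Beside Mmp13, the neutrophil collagenase Mmp8 was at 106, 115 and 111 CPM in KO and 93, 50.6 and 46.5 CPM in WT (0.81 ± 0.24, adjusted p = 0.426). Mmp9, a gelatinase, was the opposite, at 74.8, 55.2 and 68.8 CPM and 77.5, 138 and 179.9 CPM (-0.99 ± 0.27, adjusted p = 0.364). Mmp9 did not overlap, but its WT range was wide, with WT replicate 1 within 3 CPM of a KO library. Both collagenases were thus higher and the gelatinase lower in the same libraries. The clotting inhibitor Serpine2 (1.61 ± 0.40) was under 2 CPM throughout. Ecm1, Mmp8 (1.19) and Mmp9 (-1.25) were called when WT replicate 1 was left out.

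The direction of the cholesterol synthesis genes depended on which WT libraries were in the fit. Of 26 tested genes of cholesterol synthesis 20 were lower in KO, with a median of -0.11 and 0 at an unadjusted p under 0.05. Srebf2, the transcription factor of the pathway, was at 215, 195 and 215 CPM in KO and 159.9, 269 and 252 CPM in WT, and Sqle, squalene epoxidase, at 197, 164 and 192 CPM and 119, 259.5 and 227 CPM. In both genes WT replicate 1 was the lowest of the 6 libraries and WT replicates 2 and 3 were the highest. The log2 fold changes were -0.12 ± 0.18 and -0.13 ± 0.25 with all libraries, and -0.32 and -0.40 without WT replicate 1. Without it the list median was -0.33 and 10 genes were called lower, Srebf2 and Sqle among them. Without WT replicate 2 the median was 0.10, of the opposite sign, and without WT replicate 3 or KO replicate 2 it was -0.04 and -0.03.

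LXR targets, which export cholesterol, mirrored this in WT replicate 1. Their mean log2 CPM was 6.93 in that library, 6.41 and 6.37 in the other WT libraries and 6.67 to 6.78 in KO. The median was 0.00 over 12 genes with all libraries and 0.37 without WT replicate 1, when 6 were called higher, among them the small GTPase Arl4c (0.10 ± 0.21 with all libraries, 0.42 without). Smpdl3a, a secreted phosphodiesterase, was at 278, 281 and 279.9 CPM in KO and 288, 203 and 219.5 CPM in WT (0.24 ± 0.13 with all libraries, 0.41 and called without).

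Genes of lipid uptake and storage went both ways, with 2 higher and 4 lower in KO at an unadjusted p under 0.05. Lpl, lipoprotein lipase, was at 6007, 6310 and 6248 CPM in KO and 7958, 7183 and 7503 CPM in WT (-0.29 ± 0.08, adjusted p = 0.358). Acsl3, an acyl-CoA synthetase of lipid droplets, was at 81.6, 79.5 and 77.3 CPM and 128, 104 and 95.9 CPM (-0.46 ± 0.11). Fabp4, the fatty acid carrier, was at 91.4, 101 and 98.8 CPM and 164, 109.7 and 119 CPM (-0.43 ± 0.15). The 3 genes were each lower in every KO library than in any WT library, with WT replicate 1 the highest. All 3 were called without that library, at -0.25, -0.34 and -0.24. Vldlr had the largest difference of the list and was higher, at 1.99, 2.45 and 0.96 CPM in KO and 0.939, 0.339 and 0.626 CPM in WT. It differed by 1.535 ± 0.481, and by 1.87 without WT replicate 1, when it was called. The list as a whole had 10 of 24 higher and a median of -0.01, or -0.10 without WT replicate 1. In fatty acid synthesis 14 of 18 were lower, with a median of -0.07, or -0.14 without WT replicate 1. Among the 14 were Scd2, a desaturase, at 1532, 1293 and 1500 CPM and 1681, 1773 and 1648 CPM (-0.24 ± 0.09), and Elovl5, an elongase (-0.26 ± 0.08). Elovl7 was higher without overlap, at 8.12, 6.32 and 8.4 CPM in KO and 3.76, 5.33 and 6.08 CPM in WT (0.58 ± 0.21). Fatty acid oxidation had a median of 0.02 over 20 genes and 0 at an unadjusted p under 0.05.

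**Figure D4:**
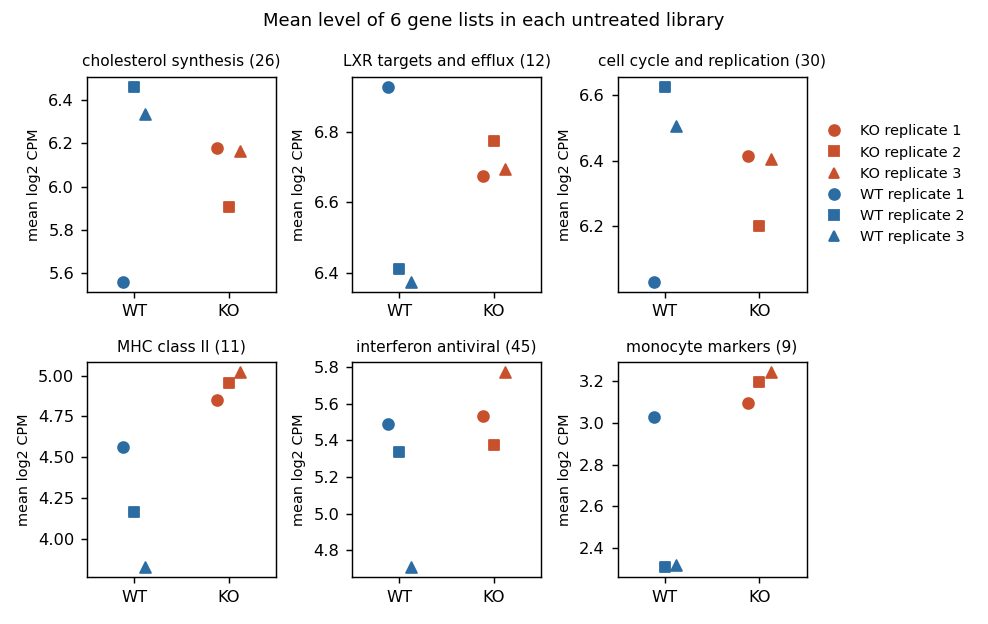
Each panel shows the mean log2 CPM (vertical axis, on its own scale in each panel) of the tested members of 1 gene list, with 1 point per library, WT left and KO right. WT replicate 1 (blue circle) lies below all other libraries for cholesterol synthesis (5.56) and above them for LXR targets (6.93), and the KO libraries lie above all WT libraries for MHC class II and monocyte genes.

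Inflammatory genes of the resting cells showed no common direction. Of 22 cytokines and growth factors 12 were higher, 5 of them at an unadjusted p under 0.05. Il1b was at 3.29, 3.59 and 3.2 CPM in KO and 1.41, 2.12 and 1.7 CPM in WT (0.92 ± 0.23, adjusted p = 0.352), and Il10, an anti-inflammatory cytokine, at 1.53, 2.17 and 2.32 CPM and 0.704, 0.846 and 0.894 CPM (1.27 ± 0.30). Pdgfc, a growth factor of fibroblasts, was at 13.7, 18.9 and 14.7 CPM and 10.4, 7.02 and 9.29 CPM (0.83 ± 0.19). The groups did not overlap in any of the 3, with Il1b and Il10 under 4 CPM in every library. Tnf was at 32.9, 25.2 and 33.4 CPM and 24.2, 50.9 and 55 CPM, so KO lay below WT replicates 2 and 3 and above WT replicate 1 (-0.51 ± 0.28, and -0.79 without that library). Pdgfc and Tnf were called without it, and Il1b and Il10 were not. Among 17 chemokines 9 were higher and 8 lower. Cxcl10, an interferon-induced chemokine, was at 9.81, 8.02 and 10.1 CPM and 6.46, 6.52 and 5.27 CPM (0.62 ± 0.16), and Ppbp, a platelet chemokine like Pf4, differed by 1.41 ± 0.37. Ccl2, the ligand of Ccr2, was at 216, 181 and 219 CPM and 125, 344 and 317 CPM, again with WT replicate 1 at the bottom (-0.35 ± 0.32, and -0.69 without it). Cxcl10, Ppbp and Ccl2 were called in the fit without WT replicate 1.

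Toll-like receptor and NF-kB genes were level (16 of 34 higher, median -0.00), with Nfkbia and Tnfaip3, both inhibitors, as the 2 lower genes at an unadjusted p under 0.05. Tnfaip3 was at 92.5, 80.5 and 79.3 CPM in KO and 91.1, 129.6 and 127 CPM in WT (-0.46 ± 0.14). Early response genes went both ways, with Myc at 41, 42.9 and 43.5 CPM and 47.9, 54.9 and 55.8 CPM (-0.32 ± 0.10), Dusp6, another ERK phosphatase, at 92.9, 100.2 and 91.3 CPM and 102, 134 and 142 CPM (-0.41 ± 0.13), and Btg2, an antiproliferative gene, at 32.6, 41 and 37.7 CPM and 27.5, 26.6 and 29.3 CPM (0.42 ± 0.12). Myc and Dusp6 were lower and Btg2 higher in KO without overlap, each with an adjusted p of at least 0.388 with all libraries. When WT replicate 1 was left out, all 3 and Tnfaip3 were called, at -0.38 for Myc, -0.54 for Dusp6, 0.41 for Btg2 and -0.61 for Tnfaip3.

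Receptors for growth factors and cytokines tended upwards, with 14 of 20 higher and 6 at an unadjusted p under 0.05 against 0 lower. Il1r1, the IL-1 receptor, was at 2.15, 1.89 and 2.72 CPM in KO and 0.704, 0.762 and 0.715 CPM in WT (1.62 ± 0.28, adjusted p = 0.225). Csf2rb, the common beta chain of the GM-CSF, IL-3 and IL-5 receptors, was at 552, 489.7 and 538 CPM and 425, 374 and 432 CPM (0.36 ± 0.09). Il4ra was at 109.8, 119 and 98.7 CPM and 90.1, 83.9 and 87.6 CPM (0.32 ± 0.09). All 3 receptors separated the genotypes. Without WT replicate 1 edgeR called 9 of 21 genes of the list higher and 0 lower, these 3 included. The shares over all genes tested were 3.7% and 2.64%. Of the windows of Csf2rb 18.4% are shared with its copy Csf2rb2.

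Among integrins and adhesion molecules 6 of 22 were higher and 2 lower at an unadjusted p under 0.05. Itgal, the alpha chain of LFA-1, was at 21.5, 15.5 and 18.5 CPM in KO and 11.6, 11.8 and 10.6 CPM in WT (0.71 ± 0.15, adjusted p = 0.325). Itgb7, the beta chain of the gut-homing integrin, was at 51.4, 52.2 and 55.4 CPM and 32.8, 44.8 and 35.9 CPM (0.48 ± 0.13). Neither overlapped, and DESeq2 called Itgal. The costimulatory ligand Cd86 was at 20, 20.9 and 19.8 CPM and 19, 14.6 and 10.9 CPM (0.46 ± 0.19, adjusted p = 0.659), with KO above WT by less than the spread among WT libraries. The chemokine receptors Cxcr3 (0.76 ± 0.16) and Ccr3 (0.54 ± 0.15) were the 2 of 11 at an unadjusted p under 0.05. Among 25 myeloid transcription factors 3 were higher and 4 lower at that level, with Bhlhe41, a circadian repressor, at 135, 128 and 147 CPM in KO and 206, 168 and 170.5 CPM in WT (-0.41 ± 0.10), and Klf4, a monocyte factor, at 19.8, 22.7 and 23.4 CPM and 17.6, 16 and 18.2 CPM (0.35 ± 0.12). Those groups were apart, in opposite directions. In iron handling Trf, transferrin, was higher by 0.39 ± 0.10, with 79.8% of its windows shared with the overlapping gene Gm20425, and Fth1, the ferritin heavy chain, lower by -0.36 ± 0.12, or -0.21 without WT replicate 1. Of the exons of Bhlhe41 13.7% lie opposite another gene. Itgal, Itgb7, Cd86, Cxcr3, Ccr3, Bhlhe41, Trf and Fth1 were called when that library was left out, and Klf4 was not.

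Genes tied to DOT1L's own complexes were lower in 17 of 18 cases with all libraries, by a median of -0.11, where 5934 of all 11622 genes tested were lower. This count did not hold without WT replicate 1, when 8 of 18 were higher and the median was -0.03. Ell2 was the clearest member, and Psip1, the chromatin reader LEDGF, was at 34.5, 34 and 32.6 CPM in KO and 53.3, 37.8 and 38.2 CPM in WT (-0.35 ± 0.14, and -0.17 without WT replicate 1). Only 3 of 13 HOXA, MEIS and related genes passed the filter, the most expressed, Pbx3, with a difference of -0.05 ± 0.21, or 0.10 without WT replicate 1. Of 44 enzymes that write or erase histone lysine methylation, 0 had an unadjusted p under 0.05 with all libraries. Their differences ran from -0.27 to 0.27, with 19 higher and a median of -0.01. Without WT replicate 1, 31 of the 44 were higher, the median was 0.10, and 3 were called higher and 1 lower. Kmt2e, the member with the highest mean CPM, was at 192, 199 and 160.1 CPM and 324, 169 and 160.5 CPM, with WT replicate 1 far above all others, a difference that was -0.24 ± 0.25 with it and 0.16 without it. Of the exons of Kmt2e 13.3% lie opposite Srpk2.

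Cell cycle genes were lower for 20 of 30, with a median of -0.06 that was -0.21 without WT replicate 1. Ccnd1, the G1 cyclin induced by M-CSF, was at 283, 247 and 269.8 CPM in KO and 228, 456 and 433 CPM in WT (-0.48 ± 0.23, and -0.74 without that library). Mcm2, a replication helicase subunit, was at 71.6, 62.2 and 69.4 CPM and 47.1, 102 and 93.6 CPM (-0.26 ± 0.25, and -0.52 without it). Both were called without it, and 21.9% of the exons of Ccnd1 lie opposite another gene. KO lay between WT replicate 1 and the other WT libraries in both genes. Antioxidant genes of the NRF2 pathway were lower for 18 of 23, with a median of -0.07, or -0.16 without WT replicate 1. Gsr, glutathione reductase, was at 44.5, 42.3 and 45.5 CPM and 48.4, 52.9 and 55 CPM (-0.24 ± 0.09). Atf4, the factor of the amino acid response, was at 182, 175 and 184 CPM and 204, 223 and 218 CPM (-0.25 ± 0.08), and its target Asns differed by -0.23 ± 0.09. Gsr and Atf4 were lower in every KO library than in any WT library, by small amounts, and both were called without WT replicate 1.

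The lists differed in how much they leaned on WT replicate 1. The medians of class II, GBP and IRG, monocyte and LXR genes were each higher without it, and that of cholesterol synthesis was lower. Ribosomal protein genes, a reference group, had medians of 0.03 with and -0.01 without it, and all genes tested -0.00 and 0.00. Direction also depended on level: in the fifth of genes with the lowest expression 64.8% were higher in KO, with 278 higher and 26 lower at an unadjusted p under 0.05. In the fifth with the highest expression 39.5% were higher, with 59 and 90. Without WT replicate 1 these shares were 63.4% and 50.3%. Among the genes with the lowest expression 349 were then higher and 64 lower at an unadjusted p under 0.05. Among those with the highest expression these counts were 309 and 334. The source of the excess among weakly expressed genes was not tested. Counts and medians of the lists were not adjusted for expression level, so lists of weakly or strongly expressed genes carry this lean.

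**Figure D5:**
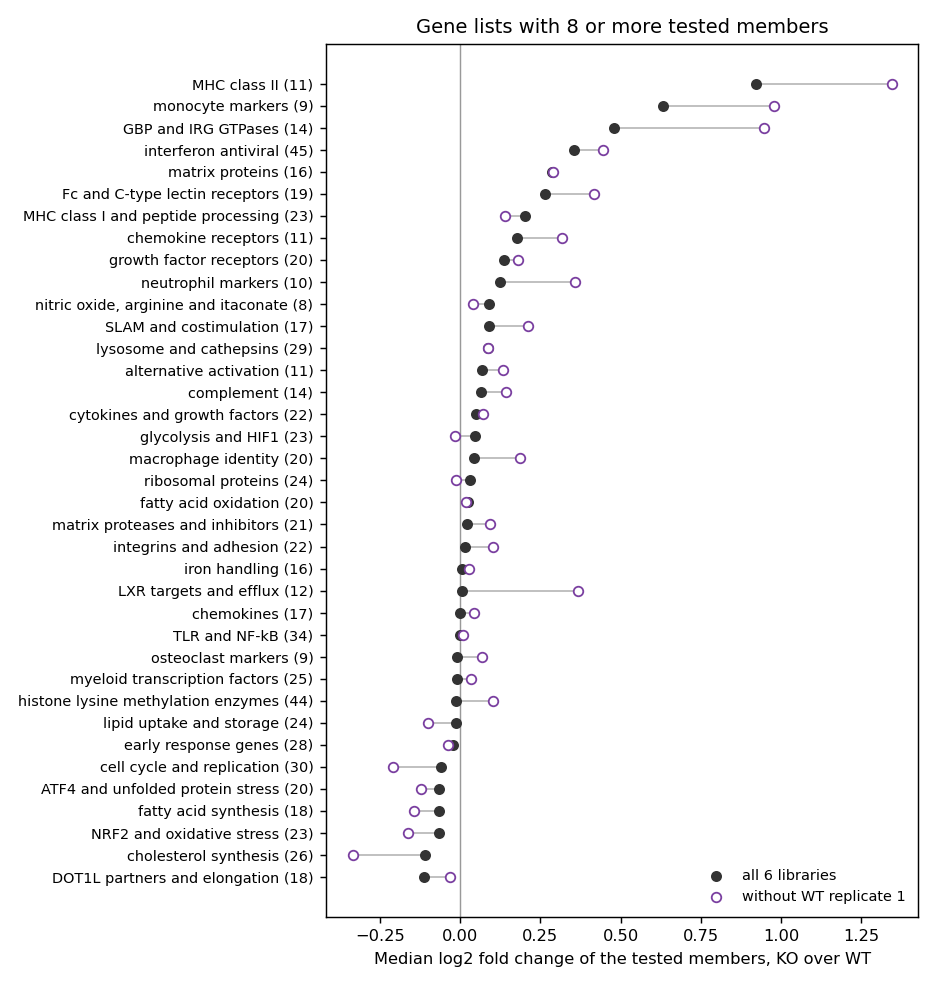
Each row is a gene list with at least 8 tested members (number in brackets), and the horizontal axis is the median log2 fold change of KO over WT, with all 6 libraries (filled) and without WT replicate 1 (open). MHC class II lies highest with all libraries at 0.92 and cholesterol synthesis lies lowest without WT replicate 1 at -0.33.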

How the data were processed

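Per the labels' protocols, RNA of cultured macrophages was made into libraries with an mRNA kit and sequenced single-end at 50 bases. Tools given in the submitters' processing notes are STAR 2.5.2b and SAMtools 1.3.1, with mm10 as the genome build. Neither the tool that counted reads nor its use of strand nor an annotation release is stated there. The deposited values are read counts, not normalized, and RPKM for 35745 RefSeq transcripts, and the authors' RPKM served only as an alternative. Names came from RefSeq (35440 transcripts) and GENCODE (188). The other 117 took 0.259% to 0.656% of the counts and were left out. Reads appear once for each isoform, so each of 24445 genes was represented by its transcript with the most counts.

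The 6 untreated libraries were fitted with edgeR 4.0.16 (filterByExpr, TMM, robust quasi-likelihood F test, Benjamini-Hochberg threshold 0.05; limma 3.58.1, DESeq2 1.42.0, R 4.3.3). Standard errors are the log2 fold change over the square root of F. With 3 against 3 an exact permutation p of 1 gene cannot go below 0.1, so none was used. On simulated counts for 11568 genes, 92.9% of changes of 1 on the log2 scale and 100% of changes of 2 were recovered, with 7 false calls. The simulation gave every gene the same dispersion and held no library that stood apart as WT replicate 1 did. It therefore checks the code and does not give the power in these libraries. Floors cover counting error only, whereas standard errors include the spread between libraries. In all, 17 alternatives were run.

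The comparison, the 45 gene lists and the rules were chosen with earlier results of these data known. Named were Dot1l, Lyz1 and Lyz2, the 12 genes in each direction with the smallest p (mean log2 CPM of at least 2, no overlap; predicted, pseudo and sex genes left out), up to 4 members per list at an unadjusted p under 0.05, or its member with the highest CPM, the 8 largest changes in each direction without WT replicate 1, and neighbours within 2 Mb of Dot1l or Lyz2. Added after their values were seen were all class II and monocyte genes, genes called by DESeq2, list members called without WT replicate 1, C1qb, C1qc, Clec4d, Clec5a and every gene of the closing section. A listed gene is not reported here.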

Additional observations from a re-analysis of the deposited data

How the results depend on the processing

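With all 6 libraries 0 genes were called in either direction, as with RLE scaling, limma-voom, a sex covariate, the lowest transcript of each gene, log2(RPKM + 0.1) in limma and without replicate 2 of both groups. DESeq2 called 41 higher and 8 lower, edgeR without a filter 8 and 1, limma-voom with sample quality weights 406 and 172, and edgeR on all 12 libraries 23 and 4. Leaving out 1 library at a time gave 0 to 437 higher and 0 to 312 lower calls, with 0 in each case but that of WT replicate 1, whose quality weight was 0.154 against 1.20 to 1.84. All 27 calls of the 12 libraries and 497 of the 578 with quality weights were also called without WT replicate 1. These fits share untreated libraries, and the quality weights nearly leave WT replicate 1 out, so this overlap is not separate support. Of the genes at an unadjusted p under 0.05, 66.7% were higher, but 84.9% in the RPKM fit, 77.4% without replicate 2, 56.0% with quality weights, 54.0% with 12 libraries and 54.5% without WT replicate 1. Same-numbered libraries did not deviate together (correlations of -0.02, -0.12 and 0.23), so the numbers were not used as pairs, and a replicate block gave 0 calls in either direction (677 genes at an unadjusted p under 0.05). Of 181 named genes, 16 turned direction under some alternative, all of them with overlapping groups. The turned log2 fold changes were 3.5e-04 (quality weights) and 0.028 (RPKM) for Hadha, 0.084 for Pbx3, 0.11 for Kmt2e and -0.013 for Asl (quality weights), and 0.034 (limma-voom), 0.26 (quality weights), 0.010 (replicate block) and 0.065 (RPKM) for Cd4. With libraries left out the 16 ranged over Nptx1 -0.83 to 0.027, Hmgcs1 -0.28 to 0.076, Hadha -0.073 to 0.012, Pbx3 -0.20 to 0.11, Kmt2e -0.46 to 0.16, Asl -0.022 to 0.17, Cd4 -0.29 to 0.31, Rpl4 -0.33 to 0.011, Rfxank -0.30 to 0.049, Cx3cr1 -0.067 to 0.41, Chil3 -0.14 to 0.31, Srebf2 -0.32 to 0.062, Msmo1 -0.34 to 0.089, Sqle -0.40 to 0.17, Arl4c -0.078 to 0.42 and Mcm6 -0.37 to 0.0059. The cause was not tested. Genes near the floor of 0.233 to 0.334 CPM, such as H2-Ob, rest on a few reads.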

Other observations

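Several genes outside the lists were called higher by DESeq2 and did not overlap between genotypes. Pltp, the phospholipid transfer protein, was at 694, 854 and 768 CPM in KO and 576, 506 and 539 CPM in WT (0.52 ± 0.10). Ms4a6d, a surface protein of macrophages, was at 170.5, 176 and 165 CPM and 122, 134 and 132 CPM (0.40 ± 0.08). Nabp1, a single-stranded DNA binding protein, was at 106, 110.4 and 104 CPM and 81.2, 75.3 and 73.3 CPM (0.48 ± 0.08). Of the exons of Pltp 21.0% lie opposite Ctsa and of Adcy3, named next, 24.3% opposite Cenpo, and whether strand was used in counting is not stated. Pltp, Ms4a6d and Nabp1 were well expressed, and each had KO libraries above every WT library. Dtx4, a Notch pathway ubiquitin ligase (0.54 ± 0.10), Cd109, a TGF-beta co-receptor (0.47 ± 0.08), Adcy3, an adenylyl cyclase (0.59 ± 0.11), Bst1, an ectoenzyme of NAD metabolism (0.62 ± 0.12), and Pik3ip1, an inhibitor of PI3 kinase (1.21 ± 0.23), were of the same kind. Adgre4, an adhesion receptor of the F4/80 family, had the largest difference of the 41, at 1.76, 1.98 and 1.76 CPM in KO and 0.469, 0.423 and 0.357 CPM in WT (2.12 ± 0.30). Bmp2, a growth factor, was at 4.29, 3.96 and 3.12 CPM and 1.17, 1.61 and 1.52 CPM (1.38 ± 0.24), and Kif1a, a neuronal transport motor, at 2.45, 2.45 and 2 CPM and 0.587, 0.762 and 0.447 CPM (1.91 ± 0.30). These last 3 genes were low in all libraries, and Adgre4 and Kif1a were under 1 CPM in every WT library.

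WT replicate 1 differed from its group mates in named genes of several kinds, and in the same direction after LPS. On the log2 scale the distance from the mean of WT replicates 2 and 3 was 1.86 for Thbs1, the matrix protein thrombospondin, and 0.81 after LPS. It was 1.49 for Selenop, the selenium carrier, and 1.06 after LPS. It was -2.06 for Tuba1b, a tubulin, and -1.38 after LPS, and -1.36 for Plau, urokinase, and -1.25 after LPS. For the chemokines Ccl7 and Ccl2 it was -1.42 and -1.40 untreated and -0.28 and -0.36 after LPS. Thbs1 was at 176, 194 and 135 CPM in KO and 168, 45.9 and 46.6 CPM in WT, a genotype difference of 0.96 ± 0.47 with all libraries and 1.86 without WT replicate 1, when it was called.

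Of the 312 genes lower in KO without WT replicate 1, 18 were gamma protocadherin names, whose transcripts share constant exons and so the same reads, with log2 fold changes of -0.43 to -0.29. Without those names the count was 294.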
